A study of Mus musculus with 8 samples.

Results

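Transcripts of 10 genes that make glucose in the liver and release it were followed in 8 mouse livers. The genes were chosen by symbol, as the rows of the deposited count table for Pcx, Pck1, Fbp1, G6pc, Slc37a4, Slc2a2, Tat, Gpt2, Ppargc1a and Foxo1. All 10 were found among its 25078 genes, and all 10 passed the filter on low counts that left 14438 genes for testing. The livers were those of male mice (strain C57/BL6), all kept for 25 weeks on food rich in fat, fructose and cholesterol. Of these, 5 were wild type and 3 carried a global knockout allele of Midn on 1 chromosome, a genotype that the labels name Midn hemizygotes and the titles Het, and which is written het-labelled below. Heterozygotes were studied because mice without any intact copy mostly died as embryos. The product, midnolin, hands short-lived nuclear proteins to the proteasome, and its role in fatty liver disease was the question. The allele is global, so cells outside the liver carried it too. The sources used here do not give the deleted part of the gene, the age of the mice, the time of day, or how long the mice had gone without food when the livers were taken.

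Gluconeogenesis builds glucose from lactate, glycerol and amino acids, and the liver uses it to hold blood glucose up between meals. Pyruvate carboxylase (Pcx) and phosphoenolpyruvate carboxykinase (Pck1) turn pyruvate into phosphoenolpyruvate, fructose bisphosphatase (Fbp1) reverses the committed step of glycolysis, and glucose-6-phosphatase (G6pc) sets glucose free inside the endoplasmic reticulum. Glucagon, acting through cyclic AMP, and glucocorticoids turn these genes on, and insulin turns them off by keeping the transcription factor FOXO1 out of the nucleus.

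Midn itself, which checks the genotype labels, had 68.7, 39.8, 71.5, 41.7 and 29.3 CPM (counts relative to library totals scaled by TMM) in wild-type libraries 1 to 5. It had 60.4, 39.1 and 51.7 CPM in the het-labelled ones, a log2 fold change of 0.00 (SE 0.30; edgeR adjusted p = 0.994), so it did not separate the genotypes. Counts outside a deleted part check nothing. Total counts ran from 17508221 to 24916239 per library. Wild-type libraries 2, 4 and 5 stood apart by their share of Rpph1, an RNA without a poly(A) tail, at 0.673 to 1.06% of counts, against 0.229 to 0.399% in the other 5 libraries. The labels name no batch, so fold changes were also taken with either set of wild-type libraries, 1 and 3 or 2, 4 and 5, as the sole comparator. The tissue label was checked on hepatocyte markers, which summed to between 55508 and 71050 CPM in wild type and to between 64279 and 99937 CPM in the het-labelled libraries. Kidney and intestine also make or handle glucose. Of 8 markers of their epithelia 3 had 0 counts in all 8 libraries, among them Slc12a1 of the kidney and Cdx2 of the intestine. The others were detected, 3 of them above the filter, and the list summed to 68.4 to 807 CPM in wild-type and 201 to 292 CPM in het-labelled libraries.

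Most genes of glucose production stood somewhat higher in the het-labelled livers, and none of the 10 passed the test. The largest differences were those of G6pc, Foxo1, Pcx and Slc2a2, the hepatocyte glucose transporter, with log2 fold changes of 0.79, 0.72, 0.67 and 0.45. Pck1, Fbp1, Slc37a4, Tat and Gpt2 lay between 0.06 and 0.31, and Ppargc1a was the lone gene on the lower side (−0.24). The fold changes of 9 genes, against 50.4% of all genes tested, were thus above 0 with TMM scaling, as they were with RLE scaling, against 8 with library size alone and 4 when the libraries were scaled to the hepatocyte markers. The median of the 10 was 0.30, beside 0.00 over all genes tested.

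edgeR's quasi-likelihood test with Benjamini-Hochberg adjustment called 0 of the 10 genes and 0 of all 14438 (0%). Before adjustment (p under 0.05), 4 of the 10 were higher, where 10.3% of all genes tested were, and 0 were lower, where 5.43% were. The 4 were the genes with the largest differences. DESeq2 also called 0 of the 10 after adjustment, beside 1.1% of the genes it adjusted, and had the same count of 4 higher at an unadjusted p under 0.05 (6.96% of all genes). The number at an unadjusted p under 0.05 was 2 without wild-type library 2 (5.76% of all genes higher), 2 without wild-type library 3 (8.23%), 1 without het-labelled library 1 (3.9%) and 1 without het-labelled library 3 (4.29%). A model term for the high Rpph1 share leaves wild-type libraries 1 and 3 as the comparator, and the number was then 5 (20.1%). Against wild-type libraries 1 and 3 alone it was 4 higher and 0 lower (16.7 and 14.9% of all genes), and 0 passed after adjustment, where 0.143% of all genes did. Against wild-type libraries 2, 4 and 5 alone it was 4 higher and 1 lower (18.8 and 18.7%), and Foxo1 was called there at an edgeR adjusted p = 0.0494, in a fit that called 18.9% of all genes.

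**Figure D1:**
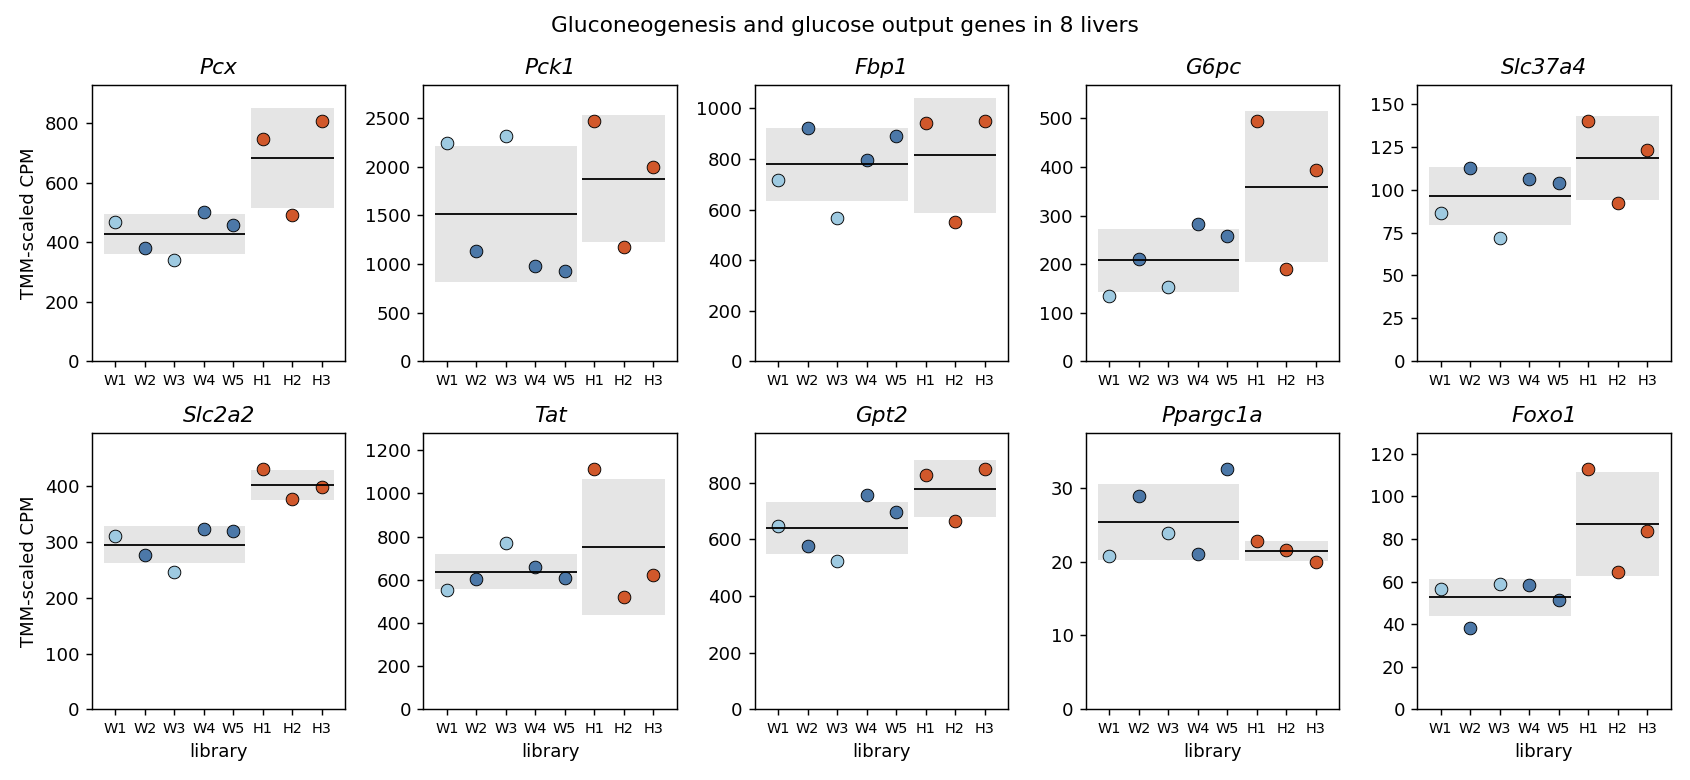
TMM-scaled CPM of each of the 10 genes in each library (W1 to W5 wild type, H1 to H3 het-labelled). Light blue marks wild-type libraries 1 and 3, dark blue the 3 wild-type libraries with a high Rpph1 share, lines are genotype means and grey bands ± 1 SD. Library H2 is the lowest of the het-labelled libraries in 9 of the 10 panels, and Slc2a2 and Foxo1 are the panels in which all 3 lie above every wild-type library.

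Among the enzymes, Pcx (chromosome 19, 4510472 to 4621752, plus strand, mm10) fills the mitochondrial pool of oxaloacetate from which gluconeogenesis starts. Its level was 468, 380, 339, 502 and 459 CPM in wild-type libraries 1 to 5 and 747, 492 and 808 CPM in het-labelled libraries 1 to 3. Het-labelled libraries 1 and 3 lay above every wild-type library and het-labelled library 2 lay just under the highest of them. The means were 429 ± 67.4 CPM (SD, n = 5) and 683 ± 168 CPM (SD, n = 3). On the log2 scale they differed by 0.67 (SE 0.22, 95% interval 0.18 to 1.16; edgeR adjusted p = 0.265), a difference that was 0.69 against wild-type libraries 1 and 3 and 0.56 against wild-type libraries 2, 4 and 5.

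Pck1 (chromosome 2, 173153073 to 173159274, plus strand), the enzyme most often read as the marker of the pathway, varied more within each genotype than between them. It had 2242, 1129.9, 2315, 979 and 926 CPM in the wild-type libraries and 2471, 1175 and 1994 CPM in the het-labelled ones. Wild-type libraries 1 and 3 and het-labelled libraries 1 and 3 were high and the other 4 libraries, of both genotypes, were low, so the genotypes overlapped throughout. Its means were 1518 ± 699 and 1879.7 ± 656 CPM, and the log2 difference of 0.31 was smaller than its error (SE 0.40, 95% interval −0.59 to 1.21; edgeR adjusted p = 0.685). It was −0.35 against wild-type libraries 1 and 3 (SE 0.33) and 0.84 against wild-type libraries 2, 4 and 5 (SE 0.27; edgeR adjusted p = 0.0634), so the sign turned with the wild-type libraries used.

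G6pc (chromosome 11, 101367716 to 101377903, plus strand), whose enzyme carries out the last step of both gluconeogenesis and glycogen breakdown, had 135, 211, 153, 283 and 259 CPM in the wild-type libraries. The het-labelled libraries had 495, 190.2 and 394 CPM, so that libraries 1 and 3 were above every wild-type value and library 2 was inside their range. The means were 208 ± 64.5 and 359 ± 155 CPM, a log2 fold change of 0.79 (SE 0.34, 95% interval 0.01 to 1.56; edgeR adjusted p = 0.312). Without het-labelled library 1 the difference was 0.49, and without het-labelled library 2 it was 1.10. Against wild-type libraries 1 and 3 it was 1.25 (SE 0.39) and against wild-type libraries 2, 4 and 5 it was 0.47 (SE 0.31), the opposite order to Pck1.

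Fbp1 (chromosome 13, 62864753 to 62888282, minus strand) showed next to no difference in its means, 779 ± 143 and 814 ± 228 CPM, with a log2 fold change of 0.06 (SE 0.25, 95% interval −0.50 to 0.63; edgeR adjusted p = 0.901). The small mean difference hid a wide spread in the het-labelled livers, where library 2 had the lowest value of all 8 (551 CPM) and libraries 1 and 3 the highest (940.2 and 949.8 CPM). The interval still holds a difference of 0.63.

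The stretches in front of the RefSeq start sites of Pck1 and G6pc are shown together with that of Ppargc1a, the coactivator that acts on both. Each runs from 250 to 31 bases before the start (RefSeq, GRCm38.p6), 5′ to 3′ on the gene's strand, and capitals mark a match to TGACG (the core of a cyclic AMP response element) or TGTTTTG (an insulin response core) on either strand. The Pck1 window is chr2:173152823-173153042 (plus strand), the G6pc window chr11:101367466-101367685 (plus strand) and the Ppargc1a window chr5:51567756-51567975 (minus strand).
Pck1: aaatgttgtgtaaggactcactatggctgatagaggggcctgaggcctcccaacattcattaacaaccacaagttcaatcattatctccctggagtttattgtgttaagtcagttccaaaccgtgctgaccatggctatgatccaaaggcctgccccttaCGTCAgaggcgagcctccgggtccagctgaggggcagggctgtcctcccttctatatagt
G6pc: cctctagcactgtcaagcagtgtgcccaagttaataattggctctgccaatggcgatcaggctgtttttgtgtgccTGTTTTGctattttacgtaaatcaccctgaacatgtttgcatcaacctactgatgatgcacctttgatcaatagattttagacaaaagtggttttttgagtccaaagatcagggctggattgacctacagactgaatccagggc
Ppargc1a: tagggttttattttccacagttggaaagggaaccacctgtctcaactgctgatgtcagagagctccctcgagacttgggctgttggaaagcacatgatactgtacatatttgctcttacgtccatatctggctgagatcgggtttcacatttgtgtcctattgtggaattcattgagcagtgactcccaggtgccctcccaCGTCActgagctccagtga
Counted from the start site, the match to TGACG, on the opposite strand, begins at −90 in Pck1 and at −49 in Ppargc1a. G6pc has no match to TGACG in this window and 1 to TGTTTTG, beginning at −174. Over the 13 promoter windows of 300 bases that RefSeq gives for the 10 genes, searched on both strands, TGACG was found in 4 windows of 3 genes (Pck1, Slc37a4 and Ppargc1a) and TGTTTTG in 1. Another motif, GTAAACA, a single form of the sites that FOXO proteins bind, was found in 0. Neither that count nor the lack of a TGACG match in G6pc shows that such sites are absent, because other forms of them were not searched. Of all 32851 such windows, 20.8% held TGACG, 6.28% TGTTTTG and 3.65% GTAAACA. These matches describe letters and not binding, which was not measured, and they were not compared with expression.

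The different behaviour of Pck1 and G6pc among the wild-type libraries shows in their ratio, taken on the deposited RPKM values, which are per exon length. Pck1 stood at 14.3 and 12.98 times the level of G6pc in wild-type libraries 1 and 3, and at 4.59, 2.96 and 3.06 times in wild-type libraries 2, 4 and 5. In the 3 het-labelled libraries the ratio was 4.28, 5.29 and 4.34. The het-labelled values thus lay close together (4.64 ± 0.567, SD, n = 3) inside a wide wild-type range (7.57 ± 5.58, SD, n = 5), and genotype did not separate the ratio (two-sided exact permutation test of its log2, p = 0.643). Of all genes tested, 31.8% had both of wild-type libraries 1 and 3 above libraries 2, 4 and 5, as Pck1 did. The reverse held for 31.1%, among them G6pc, Fbp1 and Slc37a4. The ratio of Fbp1 to G6pc was 8.14, 6.68, 5.65, 4.30 and 5.25 in wild-type livers. In het-labelled ones it was 2.90, 4.42 and 3.69, with 1 overlap (exact permutation p = 0.0714). That p was the smallest among the ratios tested, and none was adjusted for their number. Exact permutation tests gave p = 0.179 for G6pc over Slc37a4, 0.464 for Slc2a2 over G6pc and 0.536 for Pck1 over Fbp1. The same exact permutation test gave p = 0.643 for Pck1 over Pcx and for Gpt2 over Tat.

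**Figure D2:**
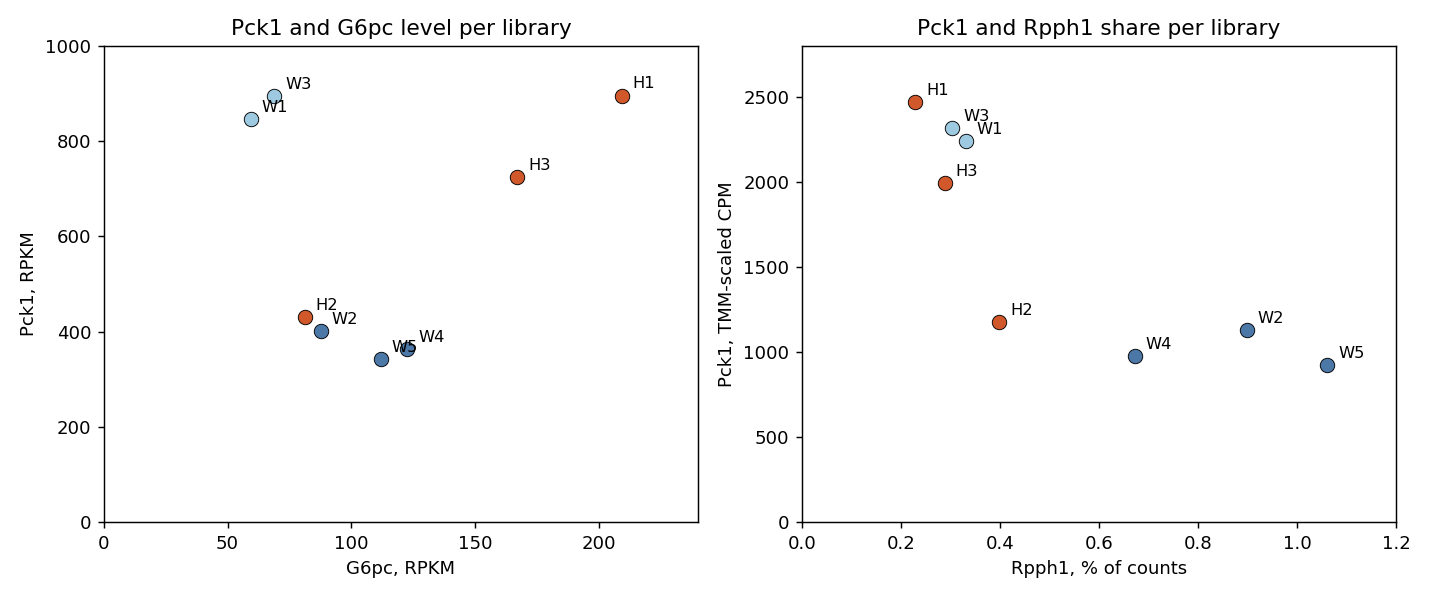
Left, Pck1 against G6pc, both as deposited RPKM, 1 point per library (W wild type, H het-labelled; colours as in the plot of values by library). Right, Pck1 in TMM-scaled CPM against the share of counts taken by Rpph1. Libraries W1 and W3 combine a high Pck1 level with the lowest G6pc levels, H1 and H3 are high in both, and the 3 wild-type libraries with a high Rpph1 share are all low in Pck1.

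Glucose leaves the hepatocyte with the help of a pair of transporters. Slc37a4 (chromosome 9, 44396927 to 44402968, plus strand) carries glucose 6-phosphate to the phosphatase in the endoplasmic reticulum, and Slc2a2 (chromosome 3, 28697903 to 28728360, plus strand), also called GLUT2, carries free glucose across the cell membrane. Slc2a2 was at 309.6, 276, 245, 323 and 318 CPM in wild type and at 430.0, 377 and 398 CPM in het-labelled livers, so that every het-labelled library stood above every wild-type one. Of all genes tested, 7.54% showed that order and 2.32% its reverse, which 0 of the 10 genes did. The means were 294 ± 33.1 and 402 ± 26.6 CPM, a log2 fold change of 0.45 (SE 0.16, 95% interval 0.09 to 0.81; edgeR adjusted p = 0.268). An exact permutation test over the 56 possible assignments gave p = 0.0357, which cannot be smaller in this design. The difference was 0.47 against wild-type libraries 1 and 3 and 0.35 against wild-type libraries 2, 4 and 5. Slc37a4 ranged from 72.0 to 113 CPM in wild type and from 92.2 to 139.9 CPM in the het-labelled libraries, a log2 fold change of 0.30 (SE 0.20, 95% interval −0.14 to 0.74; edgeR adjusted p = 0.449). It was 0.09 against wild-type libraries 2, 4 and 5 and 0.52 against libraries 1 and 3.

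Amino acids enter the pathway through aminotransferases. Tat (chromosome 8, 109990436 to 109999804, plus strand) encodes tyrosine aminotransferase, a classic glucocorticoid-induced liver enzyme, and Gpt2 (chromosome 8, 85492576 to 85528902, plus strand) the mitochondrial alanine aminotransferase, which yields pyruvate. Tat had 551, 604, 769.5, 659 and 608 CPM in the wild-type group and 1112, 519.9 and 624 CPM in the het-labelled libraries. A single library, het-labelled 1, was thus far above the rest, while het-labelled library 2 was below every wild-type value. Its log2 fold change was 0.24 (SE 0.26, 95% interval −0.35 to 0.83; edgeR adjusted p = 0.634) and −0.15 without het-labelled library 1. Gpt2 ranged from 525 to 755 CPM in wild type and from 664 to 848 CPM in the het-labelled libraries, a log2 fold change of 0.28 (SE 0.19, 95% interval −0.14 to 0.71; edgeR adjusted p = 0.455).

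The 2 regulators went in different directions. Foxo1 (chromosome 3, 52268337 to 52350109, plus strand), the insulin-restrained activator of G6pc and Pck1, had 56.7, 38.2, 58.9, 58.6 and 51.2 CPM in wild-type libraries 1 to 5 and 113, 64.6 and 83.7 CPM in het-labelled libraries 1 to 3. All 3 het-labelled values exceeded all wild-type values, the order that 7.54% of all genes showed. The means were 52.7 ± 8.68 and 87.0 ± 24.3 CPM, a log2 fold change of 0.72 (SE 0.21, 95% interval 0.25 to 1.19; edgeR adjusted p = 0.259, DESeq2 adjusted p = 0.121). Permuting the libraries exactly gave p = 0.0357, which again follows from that order alone. The difference was 0.50 without het-labelled library 1 and 0.90 without het-labelled library 2. In GENCODE M21, exons of Foxo1 overlap the antisense gene Gm20402, and no source used here says whether counting was stranded. No other gene of the 10 shares exon bases with a neighbour in that annotation.

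Ppargc1a (chromosome 5, 51454249 to 51567725, minus strand), the coactivator PGC-1α that fasting induces, was the least abundant, with 383 to 638 counts per library. It had 20.7, 28.8, 23.8, 21.0 and 32.5 CPM in wild type and 22.8, 21.5 and 19.97 CPM in the het-labelled livers. Wild-type libraries 2 and 5 were the high ones, het-labelled library 3 was the lowest of all, and the other two het-labelled values lay at the low end of the wild-type range. The log2 fold change was −0.24 (SE 0.18, 95% interval −0.65 to 0.16; edgeR adjusted p = 0.495), and it was −0.12 against wild-type libraries 1 and 3 and −0.41 against wild-type libraries 2, 4 and 5. The interval holds 0 and also −0.65.

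**Figure D3:**
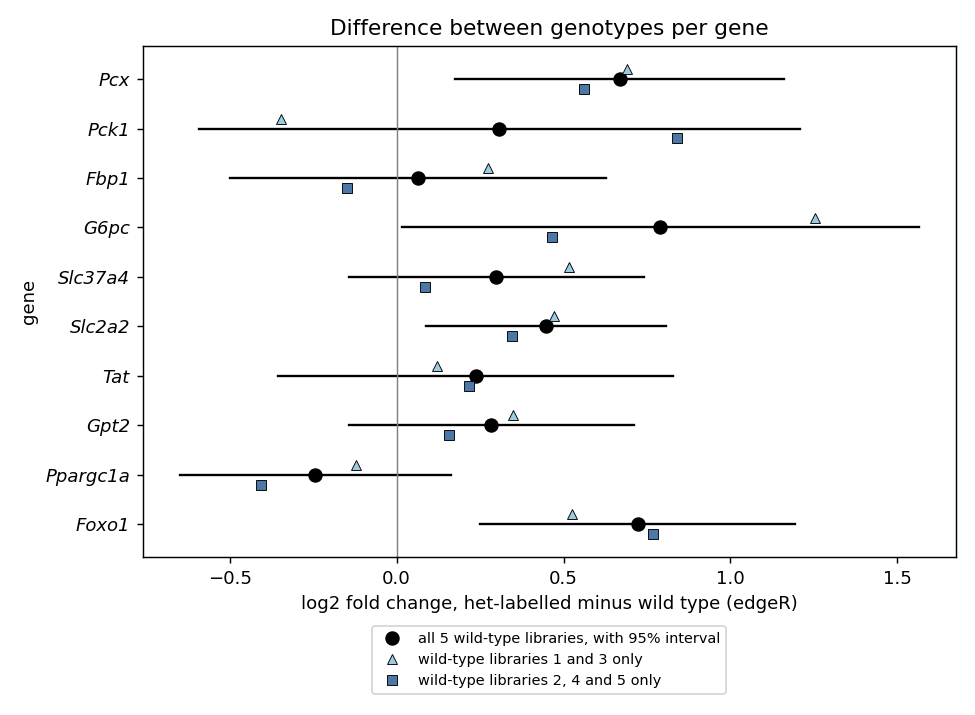
log2 fold change (het-labelled minus wild type, edgeR) of each gene. Circles with bars give the value against all 5 wild-type libraries with its 95% interval, triangles the value against wild-type libraries 1 and 3, and squares that against wild-type libraries 2, 4 and 5. Pck1 and Fbp1 are the genes whose triangle and square lie on opposite sides of 0.

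By level per exon length (RPKM, mean of the 8 libraries), the order was Pck1 (612 ± 251, SD), Fbp1 (519 ± 99.8), Tat (279 ± 76.7), Gpt2 (135 ± 20.9), Slc2a2 (126 ± 22.1), Pcx (119 ± 36.4), G6pc (113 ± 51.8), Slc37a4 (39.1 ± 7.33), Foxo1 (11.5 ± 3.91) and Ppargc1a (3.53 ± 0.644). The enzymes and transporters were thus far more abundant than the regulators. Fbp1 exceeded Tat, Tat exceeded Gpt2, G6pc exceeded Slc37a4, Slc37a4 exceeded Foxo1 and Foxo1 exceeded Ppargc1a in 8 of 8 libraries. Pck1 was above Fbp1 in 5 of 8 libraries, 2 of them wild type, so these neighbours did not differ beyond their spread. The means of Gpt2, Slc2a2, Pcx and G6pc likewise lay within 1 SD of their neighbours in this group. Library by library, Gpt2 exceeded Slc2a2, and Slc2a2 exceeded Pcx, in 6 of 8, 5 of them wild type. Pcx exceeded G6pc in 4 of 8.

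The spread between livers of 1 genotype differed a great deal from gene to gene. As the SD of log2 CPM, it was widest in wild type for Pck1 (0.65, above 81.6% of all genes tested) and G6pc (0.47, above 65.8%). It was narrowest for Slc2a2 (0.17) and Tat (0.18, above 18.2%). In the het-labelled group G6pc (0.72, above 90.8% of genes), Tat (0.57, above 86.2%) and Pck1 (0.55, above 85.2%) spread most, and Slc2a2 and Ppargc1a least (0.10 and 0.09). The SD was larger among het-labelled than among wild-type libraries for 6 of the 10 genes, against 31.4% of all genes. The median SD of the 10 was 0.26 among wild-type and 0.39 among het-labelled libraries, beside 0.35 and 0.21 over all genes. An SD over 3 libraries is itself imprecise, and these shares carry no test.

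Within the het-labelled group library 2 stood below the others. It was the lowest of the 3 for 9 of the 10 genes, all but Ppargc1a, which held for 44.6% of all genes tested. Het-labelled library 1 was the highest of all 8 livers for 6 genes (Pck1, G6pc, Slc37a4, Slc2a2, Tat and Foxo1; 19.4% of all genes) and het-labelled library 3 for Pcx, Fbp1 and Gpt2 (13.7%). Both exceeded every wild-type library for 7 genes (22.2% of all genes), while library 2 did so for Slc2a2 and Foxo1 (12.4%). The summed hepatocyte markers had the same order, 99937 and 91560 CPM in het-labelled libraries 1 and 3 against 64279 CPM in library 2. The bile duct markers had the reverse, 168 and 178 CPM against 773 CPM, with 422 to 948 CPM in wild type.

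**Figure D4:**
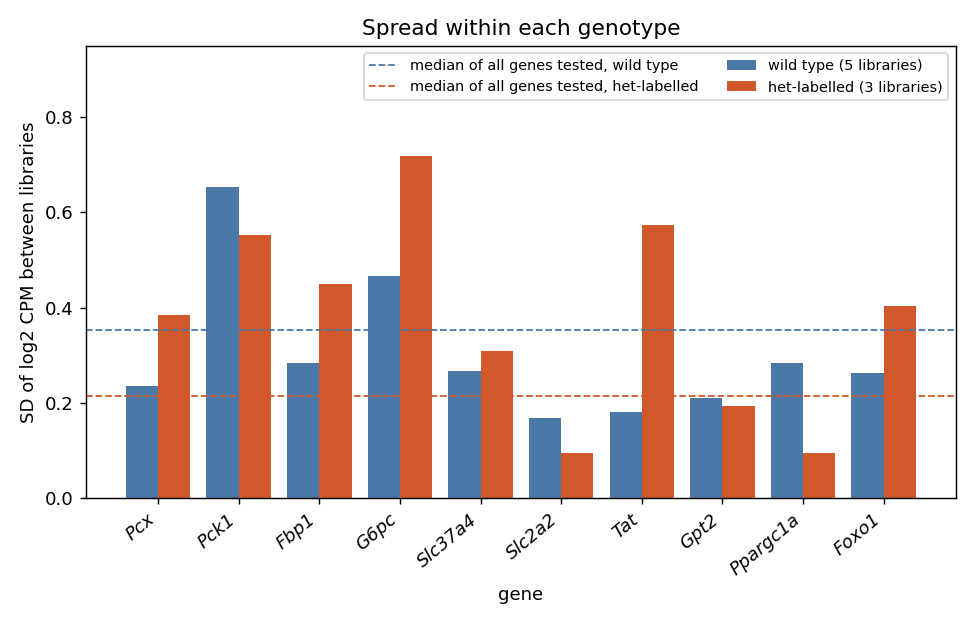
SD of log2 CPM between libraries of 1 genotype for each gene (bars, from 0), with the median SD over all genes tested as dashed lines. In wild type Pck1 and G6pc stand above the median line. Among the het-labelled libraries all genes do except Slc2a2, Gpt2 and Ppargc1a.

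In bulk liver, fewer cells of a type and less RNA per cell cannot be told apart. All 11 hepatocyte markers tested had fold changes above 0 (50.4% of all genes), with a median of 0.37, and 3 were higher at an unadjusted p under 0.05 (10.3% of all genes). Medians were −1.01 over 8 bile duct, −0.50 over 12 macrophage and −0.87 over 9 T and NK cell markers, −0.34 over 10 stellate and 0.35 over 8 endothelial ones. Macrophage markers summed to 746 to 2083 CPM in the wild-type and 674 to 1046 CPM in the het-labelled group, and T and NK cell markers to 7.30 to 21.98 and 7.05 to 11.9 CPM. When libraries were scaled to the hepatocyte markers, the median of all genes moved to −0.41 and that of the 10 genes to −0.15. The gap between these medians was 0.27, beside 0.30 with RLE scaling and 0.29 with library size alone. A change of scaling moves all genes nearly alike, so this gap cannot tell about hepatocyte content. With hepatocyte scaling G6pc (0.29), Foxo1 (0.26), Pcx (0.22) and Slc2a2 (0.03) kept a fold change above 0. The others lay below it, with Ppargc1a at −0.66 (edgeR adjusted p = 0.249). It was the single gene of the 10 with an unadjusted p under 0.05, where 0.817% of all genes were higher and 19.2% lower. With library size alone the median of all genes was −0.18 and that of the 10 genes was 0.11. The part of cell composition in these differences was not tested.

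Hepatocytes near the portal vein do most of the liver's gluconeogenesis, and those near the central vein take up more glucose. The 13 periportal markers tested had a median log2 fold change of −0.02, with 2 of them higher before adjustment (p under 0.05) and 1 lower, and summed to 7285 to 9631 CPM in wild type and 5081 to 9152 CPM in the het-labelled livers. Of 15 pericentral markers 11 were higher and 0 lower by the same measure, with a median of 1.34. Of all genes tested 10.3% were higher and 5.43% lower. They summed to 4144 to 6747 CPM in the wild-type and 9809.5 to 15114 CPM in the het-labelled group, so the groups did not overlap, and het-labelled library 2 was again the lowest of its group. The median of the 10 genes, 0.30, lay between the medians of both zone lists, as did that of the hepatocyte markers (0.37). This order does not place the genes in a zone, and a shift between zones was not tested.

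The genes also differed in how they moved together over the 8 livers. Of their 45 pairs, 36 had a positive and 9 a negative Pearson correlation of log2 CPM, and 3 passed after adjustment over the 45 by exact permutation of pairings. Pcx and Gpt2 were closest, with r = 0.95 and rho = 0.93 (exact permutation p = 4.46e-04 and 0.00223, adjusted 0.0201 and 0.0502), and r = 0.94 without het-labelled libraries 1 and 3. Pcx and Slc2a2 had r = 0.92 and rho = 0.93 (exact p = 9.92e-04 and 0.00223, adjusted 0.0223 and 0.0502; r = 0.91 without the same libraries). G6pc and its partner Slc37a4 had r = 0.90 and rho = 0.90 (exact p = 0.00203 and 0.00456, adjusted 0.0305 and 0.0513), and r = 0.86 without wild-type library 1 and het-labelled library 1. By rank correlation 0 of the 45 passed. After each genotype's mean was taken out, the r of these pairs was 0.94, 0.80 and 0.87.

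Pck1 was in none of the pairs that passed, and neither were Fbp1, Tat, Ppargc1a and Foxo1. Ppargc1a had a negative r with every other gene but Fbp1 (0.27) and Slc37a4 (0.02). Its r with G6pc was 0.04 and rho −0.05 (exact permutation p = 0.910 and 0.935, adjusted 0.934 and 0.978), or r = −0.32 without wild-type library 5 and het-labelled library 1 and −0.18 with genotype means taken out. Over all 8, the largest positive r of Pck1, 0.60, was with Foxo1 (rho = 0.64, exact p = 0.131 and 0.0962, adjusted 0.309 and 0.255). It was 0.38 without wild-type library 5 and het-labelled library 1. With Ppargc1a the r of Pck1 was −0.50 and rho −0.29 (exact p = 0.248 and 0.501, adjusted 0.428 and 0.704; r = −0.27 without that pair). All pairs share library depth, scaling and the split of the wild-type libraries, which holds too few libraries per side for a value within each.

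Outside the 10 genes, the patterns most like that of Pck1 over the 8 libraries, among 10734 genes with a mean of at least 5 CPM, were those of Mms19, Zbtb46, Rsad1 and Mtpap (r = 0.99, 0.99, 0.98 and 0.98). Mms19, which helps insert iron-sulphur clusters, had 32.2, 22.8, 31.6, 20.8 and 21.4 CPM in wild type and 34.8, 24.1 and 31.4 CPM in the het-labelled libraries, the same high and low sets as Pck1. Closest to G6pc were Afm, which encodes the plasma protein afamin, Dcun1d3, Psmg3 and Cspp1 (r = 0.99, 0.98, 0.97 and 0.97). Closest to Ppargc1a were Cstf3, Fam13b, Cenpa and Ogt (0.98, 0.94, 0.94 and 0.94), and to Tat they were Cabyr, Tpst1, Nepro and Smagp (0.96, 0.96, 0.93 and 0.91). Like Tat, these 4 had their highest value in het-labelled library 1, where Cabyr had 20.7 CPM against 3.66 to 8.26 CPM elsewhere. The r values were selected as the highest and carry no test.

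Genes around the pathway were read from 6 further lists, and 0 of their members passed edgeR after adjustment. The remaining enzymes, most of which work in both glycolysis and gluconeogenesis, had 6 of 17 tested members higher at an unadjusted p under 0.05 (10.3% of all genes) and 0 lower (5.43%), with a median of 0.24. Sord, which turns sorbitol into fructose, averaged 767 ± 175 CPM in the 5 wild-type and 1373 ± 223 CPM (SD) in the 3 het-labelled livers, a log2 fold change of 0.84 (SE 0.24; edgeR adjusted p = 0.259). Phosphoglycerate mutase Pgam1 (0.62) and glyceraldehyde 3-phosphate dehydrogenase Gapdh (0.71) followed, both of which have processed pseudogenes and are uncertain for that reason.

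Substrate supply genes were split, with a median of 0.07. By the same measure 7 of 25 were higher (10.3% of all genes) and 0 lower (5.43%). Aqp9, the channel through which hepatocytes take up glycerol, had 286 ± 39.7 and 503 ± 72.4 CPM, a log2 fold change of 0.82 (SE 0.18; edgeR adjusted p = 0.259, DESeq2 adjusted p = 0.00696). It was the single gene of these lists that DESeq2 called. Proline dehydrogenase Prodh (0.92) and the mitochondrial aspartate aminotransferase Got2 (0.62) came next. In hormonal and transcriptional control, 10 of 40 were higher and 0 lower, with a median of 0.27. The genes with the smallest p were Trib1, a pseudokinase (41.4 ± 6.13 and 71.8 ± 16.7 CPM; 0.80), Cry1, the clock repressor that restrains glucagon signalling (7.19 ± 1.48 and 13.4 ± 2.84 CPM; 0.90), and Creb3l3, a membrane-bound transcription factor induced by fasting (0.60). These 3 lay above every wild-type library in all het-labelled ones, an order that 7.54% of all genes showed. Choosing them by smallest p makes that order likelier.

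For the remaining lists, counts again use an unadjusted p under 0.05, where 10.3% of all genes were higher and 5.43% lower. Glucocorticoid targets, listed because Tat and Pck1 answer to that hormone, had 0 of 13 members on either side. Their median was 0.29. The smallest p-values belonged to Tsc22d3 (0.77; edgeR adjusted p = 0.341), Zbtb16 (0.99) and Per1 (0.47). Of 20 glycogen genes 4 were higher, namely Pgm2, which links glucose 1-phosphate to glucose 6-phosphate (0.61), the glycogen-targeting phosphatase subunit Ppp1r3c (0.65), laforin Epm2a (0.70) and the kinase Gsk3a (0.58). The brain-type phosphorylase Pygb was lower (28.9 ± 15.8 and 13.2 ± 6.66 CPM; −1.13). Another list, of 18 genes around glucose use, holds regulators as well as enzymes. Membership does not show that a gene promotes glucose use. Of these genes 5 were higher, among them the carbohydrate-sensing factor Mlxipl (135 ± 40.5 and 229 ± 59.5 CPM, 0.76). The others were muscle-type phosphofructokinase Pfkm (0.57), Gckr (0.52), Pklr (1.06) and Slc2a9 (0.36). Hexokinase Hk3, a gene of myeloid cells, was lower (16.2 ± 1.91 and 12.03 ± 0.707 CPM; −0.43). Gsk3a, Pygb, Gckr, Pklr and Slc2a9 were named after their values were seen.

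**Figure D5:**
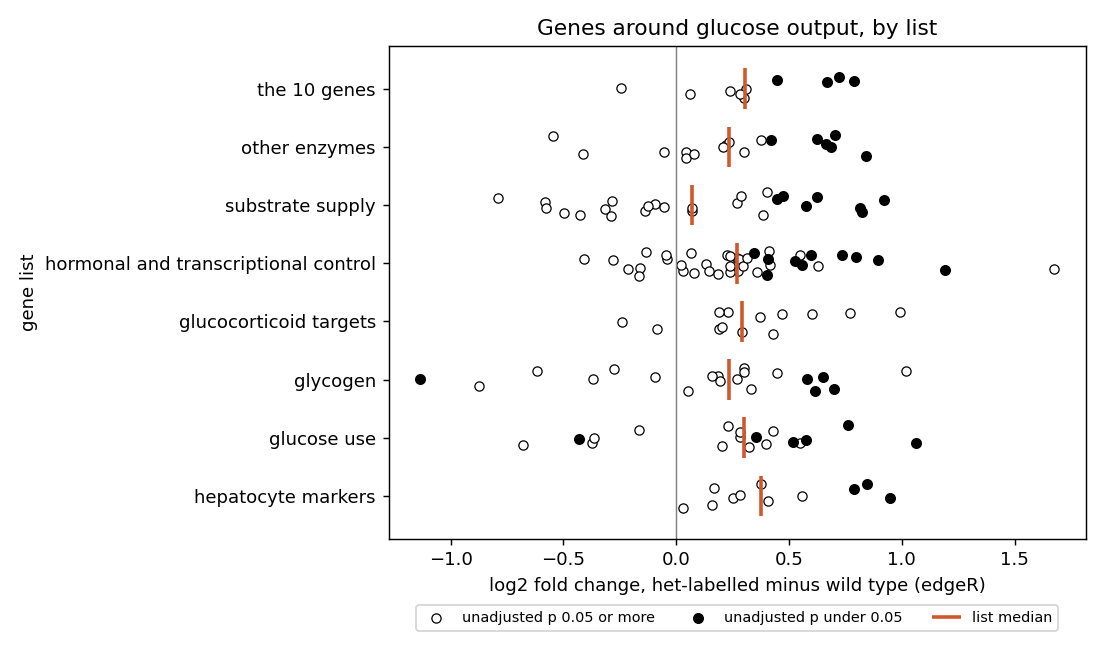
log2 fold change (het-labelled minus wild type, edgeR) of each tested gene, by list; filled points have an unadjusted p under 0.05 and orange bars are list medians. The medians of the 10 genes (0.30), the genes listed under glucose use (0.30) and the hepatocyte markers (0.37) lie side by side.

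The genes listed under glucose use had the same median of 0.30 as the 10 genes of glucose production. The list counts and the shares of all genes both moved with single livers. Without het-labelled library 1, where 3.9% of all genes were higher and 1.5% lower, the numbers higher were 3 of the other enzymes, 4 of substrate supply, 5 of control, 1 of glycogen and 0 of glucose use, with 0 lower in each. Without het-labelled library 3 (4.29% higher and 1.67% lower) the numbers higher were 2, 2, 5, 2 and 1 in the same order, and 2 glucocorticoid targets. Leaving out het-labelled library 2 (13.4 and 11.1%) gave 7 other enzymes, 8 substrate supply, 13 control, 4 glycogen and 6 glucose use genes higher. That setting also gave 2 glucocorticoid targets higher, 3 glycogen genes lower and 2 glucose use genes lower. Without wild-type library 2 (5.76 and 3.5%) there were 2 glycogen genes higher and 0 lower, and 1 glucose use gene higher and 2 lower. Without wild-type library 1 (11.4 and 6.33%) or 3 (8.23 and 7.46%) there were 3 and 2 glucose use genes higher, and 0 glycogen genes lower. Against wild-type libraries 1 and 3 (16.7 and 14.9% of all genes) the other enzymes had 11 of 17 higher and 2 lower, and the control genes had 8 and 5 of 40, near the shares of all genes. Against wild-type libraries 2, 4 and 5 (18.8 and 18.7%) the other enzymes had 5 and 1, the control genes 19 and 1, and substrate supply 7 and 5 of 25. With scaling to the hepatocyte markers (0.817 and 19.2%) 1 substrate supply gene was higher and 0 in each of the other 5 lists, and 0 to 7 were lower.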

How the data were processed

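RNA sequencing of 8 livers was used. Per the labels, RNA stored in RNAlater was column-purified, treated with DNase and made into libraries with an mRNA kit. The submitters' processing notes name build mm10 and the tools HTSeq, STAR and bcl2fastq (version 2.18.0.12); no source used here gives other versions, the annotation or strand use. The authors deposited raw counts per gene, and RPKM values, scaled by exon length and by a library total whose making is not stated. Unused sample columns numbered 0.

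The genotype label gave the groups. Replicate numbers follow accession order and pair nothing across genotypes. Every pair of libraries differed beyond counting noise (chi-square at least 22.9 per degree of freedom), and each counted as 1 replicate. The labels do not say that samples are separate litters or batches; p-values therefore rest on the spread among these libraries, which may be partly technical. Genes passed filterByExpr (minimum count 10, minimum total 15). Counts were scaled by TMM (factors 0.852 to 1.27) and tested two-sided with edgeR's robust quasi-likelihood test, Benjamini-Hochberg threshold 0.05, over 14438 genes; log2 CPM used a prior count of 2. Single values used two-sided exact permutation tests. The 10 genes and all lists were chosen with earlier results of these data known. The rule for named genes took the 10, Midn, Rpph1, up to 3 of each list with the smallest p and, for 4 genes, the 4 most alike. Gsk3a, Pygb, Gckr, Pklr, Slc2a9, Slc12a1 and Cdx2 fall outside it and were named after their values were seen. Alternatives are in the closing section; scaling to hepatocyte markers (11 of 12 symbols matched), a term for the high Rpph1 share, and list counts under each setting were added after seeing the data. On simulated data for this comparison with 14438 genes, edgeR called 1 of 50 genes changed 1.5-fold and 15 of 50 changed 2-fold. It called 33 of 50 changed 3-fold and 42 of 50 changed 4-fold, with 3 false calls. Simulated counts were drawn independently for each gene and library, without the split of the wild-type libraries. These rates may therefore not hold for the real libraries. Versions were DESeq2 1.42.0, edgeR 4.0.16 and limma 3.58.1 in R 4.3.3, and scipy 1.17.1 and matplotlib 3.10.9 in Python 3.11.15.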

Additional observations from a re-analysis of the deposited data

How the results depend on the processing

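edgeR called 0 genes in all; DESeq2 called 166, edgeR against wild-type libraries 1 and 3 called 21 and against wild-type libraries 2, 4 and 5 called 2632, and leaving out each library in turn gave 0 each time. The count of the 10 genes at an unadjusted p under 0.05 was 4; it was 2 with library size alone, 1 with scaling to hepatocyte markers, and 1 to 4 with each library left out. Their median was −0.15 with scaling to hepatocyte markers and 0.21 to 0.48 with each library left out. Signs turned for Pck1 (−0.35 against wild-type libraries 1 and 3, −0.28 with a term for the high Rpph1 share, −0.20 with scaling to hepatocyte markers), for Fbp1 (−0.13 with library size alone, −0.15 against wild-type libraries 2, 4 and 5, −0.40 with hepatocyte scaling, and −0.078 to 0.29 with each library left out), and for Tat (−0.25 with hepatocyte scaling, −0.15 to 0.45 with each library left out). With hepatocyte scaling Slc37a4 was −0.15 and Gpt2 −0.14. Midn, at 0.00, was −0.041 with RLE, −0.26 with library size alone, −0.032 in DESeq2 and −0.015 with a mean of at least 1 CPM. It was −0.54 against wild-type libraries 1 and 3 and 0.40 against wild-type libraries 2, 4 and 5. With the Rpph1 term it was −0.48, with hepatocyte scaling −0.46, and with each library left out −0.14 to 0.17. Its sign thus turned with the wild-type libraries used. The cause was not tested. Each of Pcx, G6pc, Slc2a2, Foxo1 and Ppargc1a kept its sign in all 21 alternatives. The fits with the Rpph1 term and against wild-type libraries 1 and 3 share a comparator and are not independent alternatives. No paired analysis was possible because the replicate numbers come from accession order and the groups share no labelled number.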
